A study of Sus scrofa with 80 samples.

Results

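The nuclear genes of the respiratory chain and the ATP synthase were followed in the blood of weaned pigs. The set was chosen with earlier results of these data known, and its members follow from the gene symbol. They are the probe sets of the porcine array whose only symbol belongs to the NDUFA, NDUFB, NDUFC, NDUFS or NDUFV series, SDHA to SDHD, the UQCR series, CYC1, COX4 to COX8 or the ATP5 series. This gave 74 probe sets of 59 genes, out of 6765 genes that had a probe set with 1 symbol. A gene with several probe sets, as 12 of the 59 had, is represented by the probe set with the highest mean. By name, 32 genes belong to complex I, 4 to complex II, 2 to complex III, 7 to complex IV and 14 to complex V. Another 2 probe sets, annotated as ATP5SL and COX6B, were left out because each carries more than 1 gene identifier. The subunits encoded in mitochondrial DNA were not analysed here, since 0 of the 26 symbols listed for them matched.

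The respiratory chain sits in the inner mitochondrial membrane. Complexes I and II take electrons from NADH and from succinate, complex III passes them to cytochrome c, and complex IV hands them to oxygen. Complexes I, III and IV pump protons, and the ATP synthase, complex V, uses the returning protons to make ATP. In blood, the mature red cells of mammals have no mitochondria, so that white cells, platelets and immature red cells carry these complexes. Symbol and role part ways in a few cases: NDUFA4 is now regarded as a subunit of complex IV, ATP5S is not a structural subunit of the ATP synthase, and COX7A1 and COX8H are the heart and muscle forms of their subunits.

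Blood was drawn from the anterior vena cava of pigs aged 35 days, and total RNA of the blood was hybridised to 80 arrays. The arrays form 8 trait pairs, and in each pair 5 animals came from the low end and 5 from the high end of the self-product, a score made from both traits of the pair. The traits were CD4+ and CD8+, measured by flow cytometry, IFN-alpha and IL-10, measured with immunological kits, and W35, the body weight at day 35. The pairs were CD4+ with W35, CD8+ with W35, IFN-alpha with W35, IL-10 with W35, CD4+ with IFN-alpha, CD4+ with IL-10, CD8+ with IFN-alpha and CD8+ with IL-10; the labels name no strain, sex or treatment. Values are log2 expression per probe set, and every difference below is high minus low on that scale, where 1 stands for a doubling.

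The same animals recur across pairs, as the series text states, and the 8 comparisons are therefore not independent. Columns correlating above 0.99 were taken as the same animal, which left 29 distinct animals, 21 of them in at least 2 pairs and 13 labelled low in some pairs and high in others. Each pair holds 10 different animals. Any 2 pairs had between 1 and 7 animals in common. The bioB and bioC hybridisation controls split the animals into a lower class of 11 and a higher class of 18, and this class was used as a technical block. Blood cell genes were measured in all animals: ALAS2 of immature red cells had a median of 12.39, CD3E of T cells 9.44, ITGA2B of platelets 10.01 and CD14 of monocytes 8.27.

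Each pair asks which genes differ in blood between animals with a low and with a high self-product. None of the 59 genes passed an adjusted p of 0.05 in any of the 8 pairs with limma, and their lowest adjusted p was 0.552. Neither did any of the 23999 probe sets tested, so that percent called was 0 in each pair. At an unadjusted p under 0.05 stood 5 of the 472 combinations of gene and pair, or 1.06%, beside 4.29% over all probe sets and pairs. These 5 were NDUFB7 and NDUFA12 in CD4+ with W35, UQCR10 in IFN-alpha with W35, NDUFB9 in CD4+ with IFN-alpha and ATP5A1 in CD8+ with IFN-alpha. The low and high arrays did not overlap in 1 of the 472 combinations, beside 0.678% over all probe sets. By pair, in the order above, the share of all probe sets without overlap was 1.64%, 0.408%, 0.638%, 0.533%, 0.504%, 1.12%, 0.283% and 0.296%. Differences were small: 467 of 472 (98.9%) were under 0.5 in size, as were 93.2% over all probe sets. The 95% interval lay within 1 on either side of 0 in 461 combinations, and in 85.3% over all probe sets.

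**Figure D1:**
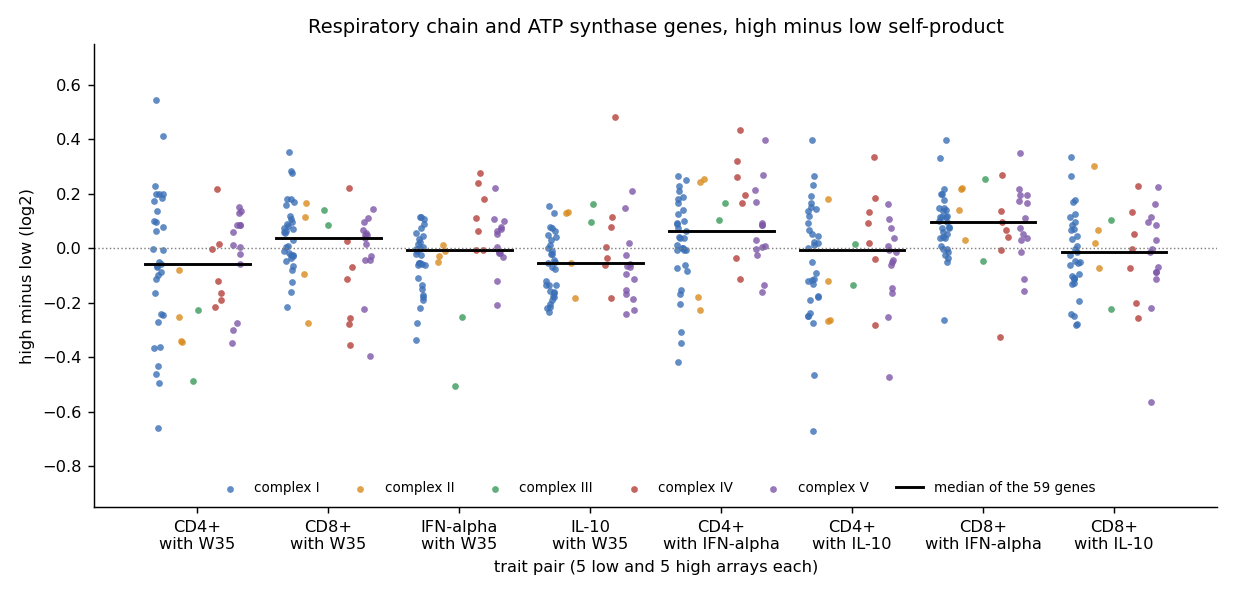
High minus low difference (log2) of each of the 59 genes in the 8 trait pairs, 1 point per gene, coloured by complex; the black bar is the median of the 59 genes. The medians lie between -0.06 and 0.10, and all points lie between -0.67 and 0.55.

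In CD4+ with W35, NDUFB7, a small subunit of the membrane arm of complex I, had the lowest p of all 472 combinations. The low arrays read 8.72, 9.34, 9.01, 8.97 and 9.26, and its high arrays 9.54, 9.46, 9.74, 9.81 and 9.47. Every high array was above every low array; groups did not overlap in 1.64% of all probe sets in this pair. The means were 9.06 ± 0.24 and 9.61 ± 0.16 (SD, n = 5 each), a difference of 0.55 (SE 0.15), or 1.46-fold, with an unadjusted p of 0.00416 and an adjusted p of 0.552 in limma. The difference was 0.60 within the lower spike-in class (2 low arrays, 1 high) and 0.45 within the higher class (3 low, 4 high). It was 0.46 to 0.61 when each array was left out in turn.

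NDUFA12, an accessory subunit of the arm of complex I that faces the matrix, was the other gene of the chain at an unadjusted p under 0.05 in CD4+ with W35, where 8.93% of all probe sets were; it is named after its values were seen. Its low arrays read 10.15, 10.13, 10.47, 9.91 and 10.65 and its high arrays 10.39, 10.72, 10.96, 10.49 and 10.80. The groups overlapped, since low replicates 3 and 5 reached into the high range. The difference was 0.41 (SE 0.18), with an unadjusted p of 0.0380 and an adjusted p of 0.552 in limma. The gene with the lowest p on the other side was NDUFA5, of the quinone-binding part of complex I, at 7.36 ± 0.24 in low and 6.87 ± 0.51 in high arrays (SD, n = 5 each), a difference of -0.49 (SE 0.24, adjusted p 0.568 in limma).

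Of the 59 genes, 24 had a positive difference in CD4+ with W35, beside 56.4% of all probe sets, and their median was -0.06, beside 0.05. All 4 complex II genes had negative differences: SDHA, the flavoprotein, -0.08, SDHB, the iron-sulphur subunit, -0.34, and the membrane anchors SDHC and SDHD -0.25 and -0.34. SDHA turned to 0.06 after quantile normalization, and ran from -0.16 to 0.03 when each array was left out. Both complex III genes did too, UQCR10 at -0.49 and UQCRB at -0.23. Of the 14 ATP synthase genes, 9 had a positive difference. The balance of signs turned on high replicate 1, the array with the lowest mean of the 59 genes in that group (9.18, the other 4 between 9.71 and 9.85). Without it 35 of 59 were positive, the median was 0.07 and 5 genes had an unadjusted p under 0.05; after quantile normalization 36 were positive, with a median of 0.06. Within the lower spike-in class (2 low arrays, 1 high) the median was 0.17, and within the higher class (3 low, 4 high) -0.14.

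In CD8+ with W35, 0 of the 59 genes had an unadjusted p under 0.05 in limma, beside 3.43% of all probe sets. Positive differences were seen for 35 genes (50.4% of all probe sets), with a median of 0.04. NDUFB7 was again the gene with the lowest p on the positive side, at 9.18 ± 0.12 in low and 9.46 ± 0.23 in high arrays (SD, n = 5 each), a difference of 0.28 (SE 0.13, adjusted p 1.0 in limma). In low arrays it read 9.23, 8.97, 9.28, 9.25 and 9.18 and in high arrays 9.36, 9.12, 9.66, 9.64 and 9.51, so that high replicate 2 fell inside the low range. On the negative side stood ATP5J, of the peripheral stalk of the ATP synthase, at 8.07 ± 0.18 and 7.68 ± 0.47 (SD, n = 5 each), a difference of -0.39 (SE 0.21).

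NDUFB7 was also the positive gene with the lowest p in CD4+ with IL-10. The low arrays read 9.45, 9.20, 9.36, 9.10 and 9.29 and the high arrays 9.94, 9.12, 9.57, 10.08 and 9.68, with 4 of 5 high arrays above the whole low group. The difference was 0.40 (SE 0.18), with an unadjusted p of 0.0508 and an adjusted p of 0.749 in limma. The 30 arrays of these 3 pairs come from 21 animals, 8 of which were in at least 2 of them. The other 5 pairs gave differences of 0.09 (IFN-alpha with W35), -0.21 (IL-10 with W35), -0.31 (CD4+ with IFN-alpha), 0.07 (CD8+ with IFN-alpha) and -0.25 (CD8+ with IL-10), with unadjusted p between 0.0958 and 0.688 in limma. No test of the difference between pairs was made, because they share animals.

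**Figure D2:**
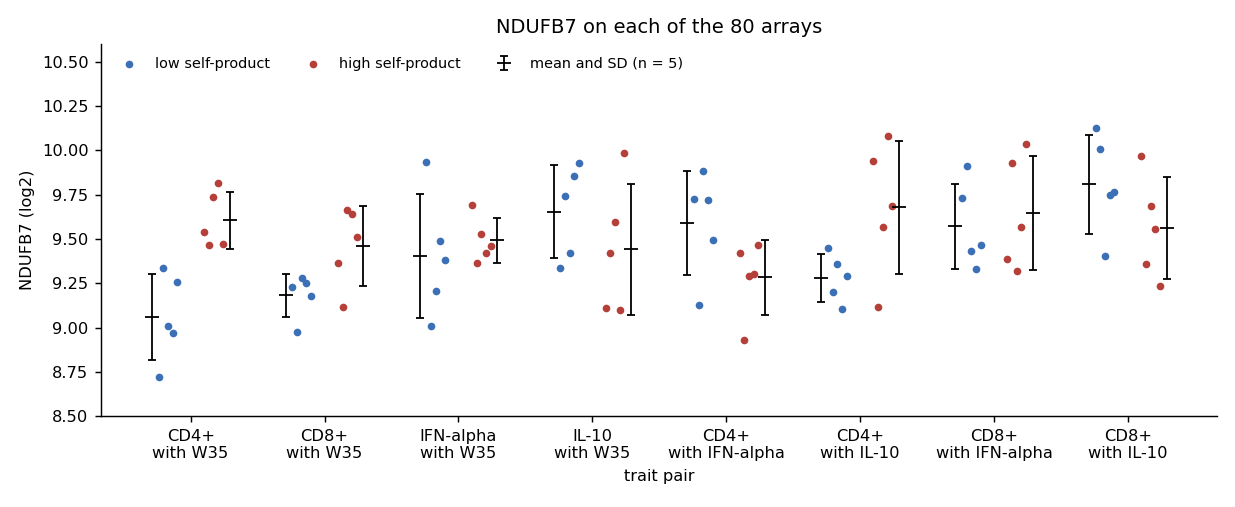
NDUFB7 (log2) on each of the 80 arrays, low in blue and high in red, with the mean and SD of each group of 5. The groups are apart in CD4+ with W35, where all low arrays are at or below 9.34 and all high arrays at or above 9.46, and overlap in the other 7 pairs.

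In IFN-alpha with W35, UQCR10, a small subunit of complex III, was the 1 gene of the 59 at an unadjusted p under 0.05, beside 4.24% of all probe sets. UQCR10 read 9.26, 9.46, 9.0, 10.09 and 9.78 in low and 8.62, 9.08, 9.18, 9.18 and 9.0 in high arrays. All but low replicate 3 of the low arrays were above the high group. The difference was -0.50 (SE 0.20), with an unadjusted p of 0.0290 and an adjusted p of 0.999 in limma. Without low replicate 4, the highest array, or without high replicate 1, the lowest, 0 genes of the chain had an unadjusted p under 0.05. UQCRB, the other complex III gene, had a difference of -0.25 (SE 0.24). On the positive side COX7A2, the form of its complex IV subunit found in most tissues, had a difference of 0.24 (SE 0.12), from 11.78 ± 0.17 to 12.02 ± 0.17 (SD, n = 5 each). In all, 26 of 59 differences were positive, beside 47.6% of all probe sets, and 5 of 7 for complex IV. The median of the 59 was -0.01, and it was above 0 after centring on the array median, with 31 positive, and with the spike-in class as a block, with 32 positive.

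In IL-10 with W35, 0 of the 59 genes had an unadjusted p under 0.05 in limma, beside 3.19% of all probe sets. The 2 genes with the lowest p in each direction were COX8H and ATP5G3. COX8H, the heart and muscle form of complex IV subunit 8, read 7.18, 6.11, 6.62, 6.78 and 6.57 in low and 7.08, 7.34, 7.95, 6.57 and 6.73 in high arrays, a difference of 0.48 (SE 0.27). The groups overlapped, and low replicate 1 was the highest of its group. ATP5G3, which codes for the ring subunit that turns as protons pass, differed by -0.24 (SE 0.13), with 12.15 ± 0.08 in low and 11.91 ± 0.20 in high arrays (SD, n = 5 each). Of the 59 differences 21 were positive, beside 49.3% of all probe sets, with a median of -0.05; without high replicate 1, 32 were positive and the median was 0.02. For complex V, 11 of 14 were negative.

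In CD4+ with IFN-alpha, NDUFB9, a membrane arm subunit of complex I, was the 1 gene at an unadjusted p under 0.05, beside 3.87% of all probe sets. Its low arrays read 11.33, 11.21, 11.53, 11.23 and 11.63 and its high arrays 10.98, 10.58, 11.16, 10.81 and 11.33. Only high replicate 5 was inside the low range. The difference was -0.42 (SE 0.16), with an unadjusted p of 0.0270 and an adjusted p of 0.971 in limma; without high replicate 4 and, separately, in the fit with trend and robust settings, 0 genes had an unadjusted p under 0.05. COX8H again had the lowest p among positive differences, at 0.43 (SE 0.24). Of the 59 genes 39 had a positive difference (47.3% of all probe sets), with a median of 0.06. Without low replicate 5 the number was 15 and the median -0.11; after quantile normalization they were 26 and -0.01, and with the spike-in class as a block 26 and -0.01.

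In CD4+ with IL-10, 0 of the 59 genes had an unadjusted p under 0.05 in limma, beside 6.18% of all probe sets, and 29 had a positive difference, beside 57.8%. NDUFC1, a membrane arm subunit of complex I, had the lowest p among negative differences. Its low arrays read 10.43, 10.27, 10.22, 10.24 and 9.92 and its high arrays 9.80, 9.73, 9.94, 10.40 and 8.88, a difference of -0.46 (SE 0.24). High replicate 5 was the lowest array, and high replicates 3 and 4 were inside the low range. The widest difference of all 472 combinations was also here, NDUFA5 at -0.67 (SE 0.38, unadjusted p 0.108 in limma).

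This pair changed with the technical class. With the spike-in class as a block, 25 probe sets passed an adjusted p of 0.05, though no gene of the 59 did (lowest adjusted p 0.165 in limma). The members at an unadjusted p under 0.05 were then 7, all with negative differences, while 19.2% of all probe sets were under it. They were NDUFV2 (-0.46) and NDUFS1 (-0.40), which carry iron-sulphur clusters, and NDUFS3 (-0.50) and NDUFA5 (-1.0) of the quinone part. The others were NDUFC1 (-0.69), UQCR10 (-0.40) and COX7C (-0.48), a complex IV subunit. Only 13 of 59 differences were then positive, with a median of -0.14. Within the lower class, 3 low arrays against 1 high gave a median of -0.53, and within the higher class 2 low against 4 high gave 0.04. After quantile normalization 39 were positive, with a median of 0.08. Without high replicate 5, the only high array of the lower class, 42 of 59 differences were positive, with a median of 0.11; without high replicate 4, 13 were, with a median of -0.13.

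In CD8+ with IFN-alpha, ATP5A1, the alpha subunit of the catalytic head of the ATP synthase, was the 1 gene at an unadjusted p under 0.05, beside 1.98% of all probe sets. Its low arrays read 11.76, 11.51, 11.68, 11.94 and 11.56 and its high arrays 12.17, 11.92, 12.02, 11.80 and 12.28. The groups overlapped only through low replicate 4 and high replicates 2 and 4. The difference was 0.35 (SE 0.14), 1.27-fold, with an unadjusted p of 0.0298 and an adjusted p of 1.0 in limma. After quantile normalization, and without low replicate 2, 3 or 5 or high replicate 1 or 5, 0 genes were under 0.05; without low replicate 1 there were 3. Positive differences were seen for 46 of the 59 genes (49.3% of all probe sets), with a median of 0.10, and for 36 to 51 genes when each array was left out. All 4 complex II genes were among them, from 0.03 for SDHB to 0.22 for SDHA. SDHB turned to -0.02 after quantile normalization; leaving out single arrays, it ran from -0.08 to 0.11 and SDHD from -0.02 to 0.24. NDUFV3, an accessory subunit of the NADH-oxidising module, had the lowest p among negative differences, at -0.26 (SE 0.17).

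In CD8+ with IL-10, 0 of the 59 genes had an unadjusted p under 0.05 in limma, beside 2.53% of all probe sets. NDUFS6, a zinc-binding subunit of complex I, differed by 0.33 (SE 0.17), from 7.87 ± 0.12 to 8.21 ± 0.33, and ATP5S by -0.56 (SE 0.32), from 8.08 ± 0.66 to 7.52 ± 0.45 (SD, n = 5 each). Of the 59 differences 26 were positive, beside 46.1% of all probe sets, with a median of -0.01. Without low replicate 4 the number was 9 and the median -0.17, and without low replicate 1 it was 45 and 0.08.

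The spread inside the groups was uneven. In the 12 groups without the animals of lowest mean, the SD of the mean of the 59 genes over 5 arrays was 0.051 to 0.169. It was 0.273 in the high group of CD4+ with W35, which holds the lowest animal. In the low group of CD4+ with IFN-alpha it was 0.343, in the high group of CD4+ with IL-10 0.349 and in the low group of CD8+ with IL-10 0.352. These 3 groups each hold both the second lowest and the highest animal.

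Over the 29 animals, each taken once with the effect of the trait pair removed, the mean of the 59 genes ran from 9.26 to 10.21 with a median of 9.87 (SD 0.197). The widest distance was 0.952, or 1.94-fold. Columns taken as copies of an animal had a median residual SD of 0.033 for the 59 genes. They were picked for correlating above 0.99, so this value does not measure repeatability. In such bulk samples, fewer cells of a type and less RNA per cell cannot be told apart.

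Animals at either end stood apart. The lowest (9.26) was high replicate 1 of CD4+ with W35, which had the lowest value of all animals for 22 of 59 genes and was among the lowest pair for 37. The second (9.28) was low replicate 5 of CD4+ with IFN-alpha, also used as high replicate 5 of CD4+ with IL-10 and low replicate 4 of CD8+ with IL-10; it was lowest for 27 genes. The next animal was at 9.60. The highest (10.21) was low replicate 3 of CD4+ with IFN-alpha, also used as high replicate 4 of CD4+ with IL-10, high replicate 5 of CD8+ with IFN-alpha and low replicate 1 of CD8+ with IL-10, and it had the highest value for 25 genes. Over all probe sets, the median correlation of the lowest animals with the others was 0.927 and 0.929. It was 0.954 to 0.980 for every other animal, so that these animals stood apart over the whole array and not only in the 59 genes. The lower spike-in class spanned 9.28 to 9.91 and the higher class 9.26 to 10.21, with medians of 9.77 and 9.88.

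**Figure D3:**
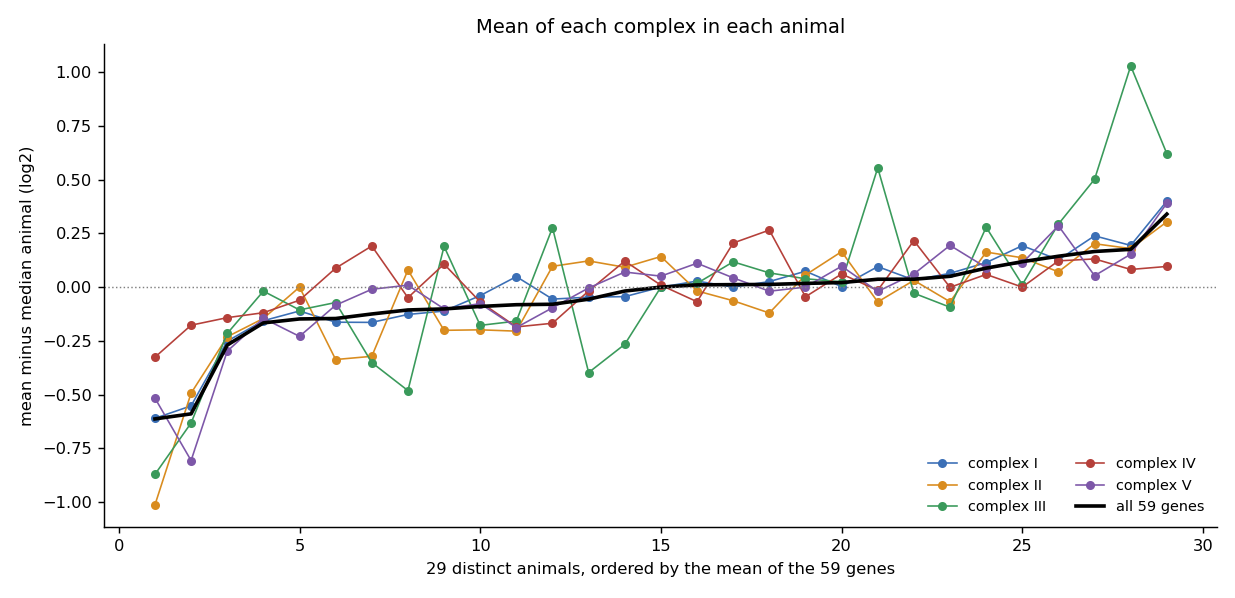
Mean of each complex in the 29 distinct animals, as the difference (log2) from the median animal, ordered from the lowest to the highest mean of all 59 genes (black). Complex II is lowest in the first animal and complex V in the second, while complex IV moves least at both ends.

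The complexes did not shift by the same amount in these animals. In the lowest animal complex II averaged 8.66 and complex V 10.10; in the second lowest they averaged 9.18 and 9.81. Complex IV was at 9.98 and 10.13 in these animals and at 10.40 in the highest animal, and complex I at 8.84, 8.90 and 9.85. The levels of different complexes come from different probes and are not compared with each other.

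The genes differed in how much they varied between animals. Their SD had a median of 0.303, beside 0.334 for all probe sets and 0.418 for those at or above the median brightness. NDUFA5 varied most, from 5.35 to 8.10 with a median of 7.25 (SD 0.540), and COX6A1, the non-muscle form of its complex IV subunit, least, with a median of 12.47 and a 1.53-fold distance between the lowest and highest animal (SD 0.132). Within complex I the narrowest was NDUFB8 of the membrane arm (SD 0.215). Within complex II the anchor SDHD had an SD of 0.391 and the catalytic SDHA 0.285. UQCRB and UQCR10 of complex III were at 0.427 and 0.422. COX8H was the widest of complex IV (SD 0.404), from 6.04 to 7.69. In complex V, ATP5S had an SD of 0.464 and ATP5F1, of the peripheral stalk, 0.187.

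Most of the genes went up and down together from animal to animal. The mean correlation between 2 of the 59 genes was 0.377, over 1711 combinations, and 0.077 between the 4884 other genes at or above the median brightness. These other genes were not matched to the brightness of the 59. With the mean of the remaining members, 46 of 59 genes (78.0%) correlated above 0.5, while 33.4% of the other genes did so with the mean of the 59. Genes read on the same array share its RNA quality and blood make-up, which vary between animals. These values describe 29 animals without a test. Without the lowest 2 animals the mean correlation was 0.260, and 34 genes were above 0.5. The first principal component held 46.8% of the variance of the 59 genes.

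The mean correlation inside the ATP synthase was 0.511 over 91 combinations, and it was 0.396 inside complex I, 0.462 inside complex II and 0.133 inside complex IV. The complex IV value includes the muscle forms COX7A1 and COX8H. Without the lowest 2 animals, these values were 0.343, 0.306, 0.273 and 0.071 in the same order. With all probe sets of a gene averaged, they were 0.360, 0.367, 0.419 and 0.111. The pair of complex III genes correlated at 0.652. The members nearest to the rest were NDUFB5 (0.94) and NDUFA13 (0.90) of the membrane arm of complex I, followed by ATP5G3 (0.88) and ATP5H, of the peripheral stalk (0.87). NDUFB5 ran from 8.18 to 10.12 over the animals. ATP5G1, ATP5G2 and ATP5G3 are separate genes for the same mature ring subunit; they correlated with each other at 0.75 to 0.82, and at 0.49 to 0.62 without the lowest 2 animals.

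**Figure D4:**
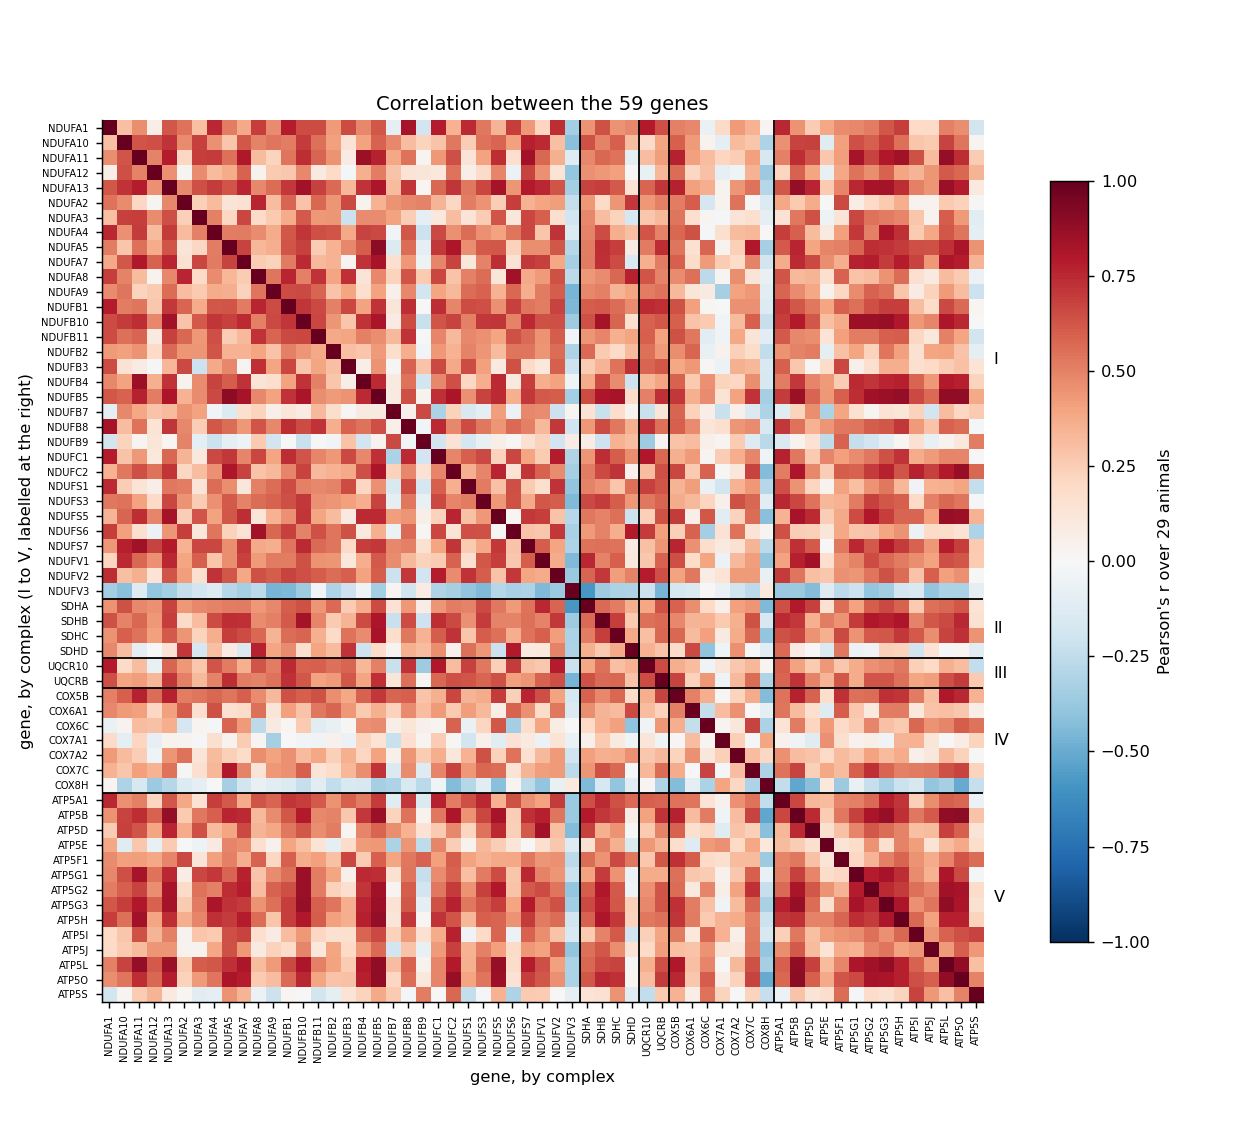
Pearson's r between each 2 of the 59 genes over 29 distinct animals, ordered by complex, red for positive and blue for negative. NDUFV3 and COX8H are negative with most other genes, and NDUFB7 and NDUFB9 are weak with most but correlate with each other at 0.66.

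NDUFV3 (-0.43) and COX8H (-0.32) were the 2 genes that ran against the others. NDUFB9 (0.03) and COX7A1 (0.11) followed next, and NDUFB7 was at 0.14. Without the lowest 2 animals NDUFV3 was at -0.25 and COX8H at -0.39, COX7A1 turned to -0.29, and NDUFB9 and NDUFB7 were at 0.28 and 0.48. The NDUFV3, COX7A1 and COX8H probe sets were dim, at the 57.4, 49.5 and 69.2 percentile of all probe sets by mean, while NDUFB9 was at the 97.8 percentile. COX7A1 and COX8H correlated with each other at 0.40, and COX7A1 with its counterpart COX7A2 at 0.24. NDUFB7 and NDUFB9 correlated at 0.66, and at 0.70 without the lowest 2 animals; this combination was chosen after its values were seen. NDUFV1, which binds NADH, and NDUFV2, its neighbour in the complex, correlated at 0.37, and NDUFV1 and NDUFV3 at -0.44.

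Where a gene had further probe sets, they correlated with the one used at between -0.60 (ATP5I) and 0.87 (NDUFB3). The second ATP5I probe set had a mean of 4.57, against 8.45 for the one used. The 2 NDUFB3 probe sets had means of 9.0 and 8.91. SDHA and SDHB each had a second probe set, with correlations of 0.63 and 0.61.

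Outside the 59 genes, the genes that followed their mean most closely were USMG5 (0.91), a small membrane subunit of the ATP synthase that the symbol rule does not take in, and FH (0.91), the fumarase of the citric acid cycle. SEM1 (0.91), a proteasome subunit, NUDC (0.90), UCHL3 (0.90), a ubiquitin hydrolase, IPO5 (0.89), an importin, ACADSB (0.89), a mitochondrial acyl-CoA dehydrogenase, and UBA2 (0.89), of the SUMO-activating enzyme, came next among 4884 genes. NDUFAB1, the acyl carrier subunit of complex I, was at rank 11 (0.88) and NDUFAF3, an assembly factor of complex I, at rank 17 (0.88); both are named after their values were seen. Without the lowest 2 animals, SEM1 was at 0.89, FH at 0.83 and USMG5 at 0.80.

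Lists of related genes were set beside the mean of the 59 over the animals. The 17 citric acid cycle genes measured correlated with it at r = 0.95 (rho = 0.85), and at r = 0.87 without the 2 animals farthest from the median of that list. The 15 carriers of electrons and metabolites were at r = 0.86 (rho = 0.63; 0.70 without the 2), and the 16 assembly factors at r = 0.76 (rho = 0.66; 0.50 without the 2). Mitochondrial antioxidants were at r = 0.67 (rho = 0.59; 0.37 without the 2) and 5 genes of mitochondrial biogenesis at r = 0.66 (rho = 0.40; 0.43 without the 2). The 17 glycolysis genes were at r = 0.20 (rho = 0.13), and at 0.03 without the 2 animals farthest off. Within the lower and the higher spike-in class, antioxidants were at 0.25 and 0.80, and glycolysis genes at -0.17 and 0.20.

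Markers of blood cells moved with the 59 genes to different degrees. The 9 genes of dividing cells were at r = 0.70 (rho = 0.53; 0.55 without the 2 farthest animals), with a list mean of 7.31 and 7.26 in the lowest animals and 9.22 in the highest, against a median of 8.19. The 9 T cell genes were at r = 0.55 (rho = 0.33; 0.29 without the 2) and the 2 B cell genes at r = 0.57 (rho = 0.43; 0.34 without the 2). The 7 cytotoxic and NK cell genes were at r = 0.43 (rho = 0.45; 0.37 without the 2), and their mean was highest, at 11.05, in the animal with the highest mean of the 59 genes. The second lowest animal had the lowest T cell and B cell means (7.13 and 6.93, medians 8.92 and 9.22) and a neutrophil mean of 9.42, against a median of 7.76. The lowest animal did not share this: its T cell mean was 8.52 and its neutrophil mean 7.51. The 6 neutrophil genes were at r = -0.40 (rho = -0.38, and -0.21 without the 2), erythroid genes at 0.11, platelet genes at 0.04 and monocyte genes at 0.00. Within the lower and the higher spike-in class, platelet genes were at -0.45 and 0.22, and T cell genes at 0.76 and 0.41. B cell genes were at 0.80 and 0.38 there, and dividing cell genes at 0.75 and 0.69. The excess of 3′ over 5′ signal of actin, which grows as RNA degrades, was at r = -0.40 (rho = -0.47), with 0.12 within the lower and -0.51 within the higher spike-in class. That of GAPDH was at r = -0.34 (rho = -0.36), with 0.16 and -0.50 within the classes. The GAPDH excess was 1.18 in the lowest and 0.58 in the second lowest animal, against a median of 0.72. The part of cell make-up or RNA quality in the level of the 59 genes was not tested.

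**Figure D5:**
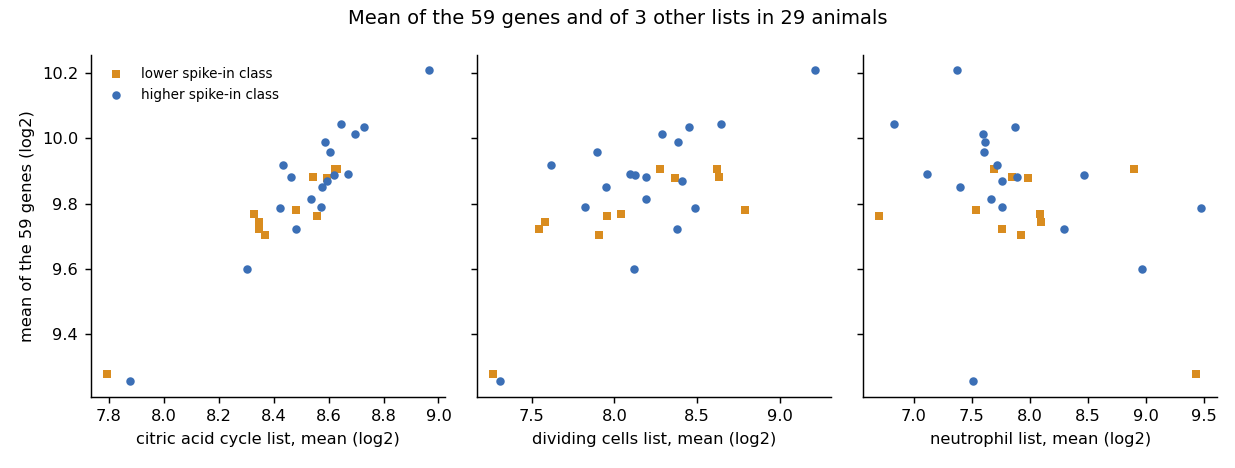
Mean of the 59 genes (log2) against the list means (log2) of the citric acid cycle, of dividing cells and of neutrophils in 29 animals; squares are the lower and circles the higher spike-in class. The citric acid cycle list follows the 59 genes over the whole range, including both lowest animals, while the neutrophil list separates these at 7.51 and 9.42.

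In the trait pairs, these lists gave counts near the background of 4.29%. At an unadjusted p under 0.05 in limma were 9 of 128 combinations of assembly factor and pair (7.03%; 3 positive and 6 negative), 6 of 120 for the carriers (5%; 3 and 3), 4 of 136 for the citric acid cycle (2.94%; 2 and 2), 4 of 136 for glycolysis (2.94%; 3 and 1), 3 of 56 for antioxidants (5.36%; 1 and 2) and 0 of 40 for biogenesis. None passed an adjusted p of 0.05 in limma. TMEM70, an assembly factor of the ATP synthase, differed by -0.75 (SE 0.34) in CD4+ with W35 and by 0.68 (SE 0.27) in IL-10 with W35. GPD2, which feeds electrons from glycerol phosphate into the chain, differed by 0.84 (SE 0.23, adjusted p 0.999 in limma) in IFN-alpha with W35. Its groups did not overlap there, as was so for 0.638% of all probe sets in this pair. GPD2 differed by -0.61 (SE 0.26) in CD8+ with W35. DLAT, of pyruvate dehydrogenase, differed by -0.46 (SE 0.18) in CD4+ with W35 and -0.45 (SE 0.18) in CD4+ with IL-10, and FH by 0.39 (SE 0.17) in CD8+ with IFN-alpha. VDAC2, a channel of the outer membrane, differed by 1.07 (SE 0.38) in CD8+ with IL-10. These genes were named after their values were seen.

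The blood cell lists differed in their counts, and none of their genes passed an adjusted p of 0.05 in limma. Of the cytotoxic and NK cell genes, 14 of 56 combinations (25.0%) had an unadjusted p under 0.05 in limma, 10 of them positive. Over all probe sets and pairs the share was 4.29%. The counts were 12 of 72 (16.7%) for dividing cells, 8 of 48 (16.7%) for monocytes and 6 of 48 (12.5%) for platelets. Erythroid cells had 8 of 72 (11.1%), T cells 6 of 72 (8.33%), neutrophils 0 of 48 and B cells 0 of 16. For cytotoxic and NK cell genes in CD4+ with W35, 6 of 7 differences were positive, with a median of 0.90, beside -0.06 for the 59 genes. An unadjusted p under 0.05 in limma was seen for 5 of the 7, beside 8.93% of all probe sets. Their list mean was 9.335 to 9.764 in low and 10.027 to 10.455 in high arrays. Groups did not overlap in 1.64% of all probe sets in that pair. In CD8+ with W35, 6 of 9 dividing cell genes had an unadjusted p under 0.05 in limma with positive differences, beside 3.43% of all probe sets. The list mean was 7.36 to 8.04 in low and 8.06 to 8.59 in high arrays. Groups did not overlap in 0.408% of all probe sets in this pair, and the median difference of the 59 genes was 0.04. In CD8+ with IFN-alpha, the 9 T cell genes all had positive differences (median 0.37), as did 8 of 9 dividing cell genes (median 0.45). Beside these stood 49.3% of all probe sets, and a median of 0.10 for the 59 genes. All 9 T cell genes also had positive differences in CD4+ with IFN-alpha (median 0.47) and in CD8+ with IL-10 (median 0.28). There the 59 genes had medians of 0.06 and -0.01, and 47.3% and 46.1% of all probe sets were positive. Of the 9 dividing cell genes, 2 and 3 were positive in those pairs. These pairs were named after their values were seen. The part of the blood cell lists in the differences of the 59 genes was not tested.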

How the data were processed

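Per the submitters' processing notes, RMA and limma were used, with no versions given; what the authors deposited are log2 levels of single probe sets, and each trait pair looks normalized as a set of its own (array means 5.64 to 6.08). The deposit holds 24123 probe sets, of which 124 are controls. Symbols came from the platform's annotation; 10069 of the probe sets tested have 1 symbol, 198 several and 13732 none. No genome build or coordinates were used. The number of arrays, 5 per group, limits the precision.

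The 59 members and all lists were chosen with earlier results of these data known. Each pair was fitted alone with limma 3.58.1 in R 4.3.3 (lmFit, eBayes, two-sided), and p was adjusted by Benjamini-Hochberg over 23999 probe sets. Values per animal are least squares effects of animal beside pair, per probe set (Python 3.11.15, numpy 2.4.6, pandas 2.3.3, matplotlib 3.10.9). By the correlation rule, samples were taken as separate animals within a pair, so that p weighs a difference against the spread between animals.

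Genes were named by rule: in each pair up to 4 members per direction without overlap and with an unadjusted p under 0.05, otherwise the lowest p of a direction; the widest and narrowest SD per complex; isoforms; the 4 most and 4 least like the other members; and 8 other genes most like their mean. Where the text says so, a gene was named after its values were seen. Simulated data, drawn pair by pair with the measured spread, served as a test: 41 to 78 of 100 probe sets with a 2-fold change and 78 to 96 of 100 with a 4-fold change were recovered, with 4 to 16 false calls. The simulated probe sets varied independently of each other, unlike the genes measured, and no change under 2-fold was drawn. These counts therefore do not give the power for the smaller differences reported here. Alternatives were quantile normalization, centring of arrays on their medians, leaving out probe sets below the median level, the trend and robust options of eBayes, blocks for replicate number or spike-in class, averaging all probe sets per gene, and dropping arrays in turn. Leaving out the lowest 2 animals was added after seeing the data. Promoter and protein sequences were not used here.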

Additional observations from a re-analysis of the deposited data

Results flagged for a closer look

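Groups of 5 arrays were screened with Dixon's ratio for an array far from the others, in 50 groups of values (the mean of the 59 genes in 16 groups, and the genes named in each pair). Chance alone marks about 1 in 20 groups, and 2 were marked. In the high group of CD4+ with W35, replicate 1 had a mean of the 59 genes of 9.18, with the other 4 arrays between 9.71 and 9.85. In the low group of CD4+ with IL-10, replicate 1 was at 10.11, with the others between 9.78 and 9.87.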

How the results depend on the processing

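The count of probe sets past an adjusted p of 0.05 was 0 in all pairs with limma and in every alternative but these: 25 in CD4+ with IL-10 with the spike-in class as a block, and, leaving out each array in turn, 0 to 6 in CD4+ with W35 (6 without low replicate 2, 2 without high replicate 4), 0 to 1 in IFN-alpha with W35 (without low replicate 3), 0 to 2 in IL-10 with W35 (without high replicate 5) and 0 to 7 in CD4+ with IFN-alpha (without low replicate 1). None of the 59 genes passed in any of these settings. Counts of the 59 genes at an unadjusted p under 0.05, which were 2, 0, 1, 0, 1, 0, 1 and 0 in the order of the pairs, became after quantile normalization 4 in CD4+ with W35, 1 in CD8+ with W35, 1 in IL-10 with W35, 3 in CD4+ with IFN-alpha, 1 in CD4+ with IL-10, 0 in CD8+ with IFN-alpha and 1 in CD8+ with IL-10. Centring on the array median gave 1 in CD8+ with W35. The filter at the median probe set gave 1 for CD4+ with W35 and 0 for CD8+ with IFN-alpha. Trend and robust settings gave 1 for CD4+ with W35 and 0 for CD4+ with IFN-alpha. The spike-in class as a block gave 2 in IFN-alpha with W35, 1 in IL-10 with W35, 2 in CD4+ with IFN-alpha and 7 in CD4+ with IL-10. Leaving out each array gave 1 to 5 in CD4+ with W35, 0 to 2 in CD8+ with W35, 0 to 2 in IFN-alpha with W35, 0 to 1 in IL-10 with W35, 0 to 3 in CD4+ with IFN-alpha, 0 to 5 in CD4+ with IL-10, 0 to 3 in CD8+ with IFN-alpha and 0 to 5 in CD8+ with IL-10. The cause was not tested.

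The labels do not say whether replicate numbers pair the arrays, and the numbers were not taken as a pairing. Arrays of the same number correlated between -0.544 and 0.365 after removing group means, and no pair had all 5 above 0.1. For CD4+ with W35, 4 of 5 were, and for 3 of 5 the own number gave the best correlation. With the number as a replicate block, the count was 2 in IFN-alpha with W35, 2 in CD4+ with IFN-alpha and 0 in CD8+ with IFN-alpha, and stayed at its value in the other pairs. The gene with the lowest p in each direction of a pair, and NDUFA12, kept their sign in all alternatives run on them. Smaller differences did not: leaving out single arrays, NDUFB7 ran from -0.01 to 0.22 in IFN-alpha with W35 and from -0.02 to 0.16 in CD8+ with IFN-alpha. Over the animals, the distance between the lowest and the highest mean of the 59 genes (0.952) was 0.626 within the lower spike-in class and 0.609 without the lowest 2 animals. The mean correlation between genes (0.377) was 0.279 and 0.260 there. With 5 animals a group, the median 95% half-width of a difference was 0.31 to 0.49.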
